A study of Mus musculus with 26 samples.

Results

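Hmga1, Hmga2, Lin28a, Lin28b, Igf2bp1, Igf2bp2, Igf2bp3 and Arid3a are grouped here as oncofetal genes. Genes of this class are typically active in embryonic tissue, low in most adult tissue and often active again in tumours. Adult tissue was not measured here, and members may differ in it. The members are 8 of the 41442 gene rows in each RNA-seq count table. They were found by symbol, and each matched 1 row in both tables. The set was selected on measured values of these libraries: the level of Hmga2 at the 2 ages in male cells, where its steep fall was known. That comparison, and those of Hmga2 between the sexes, which draw on the same XY values, are therefore described here without a test.

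The cells were fluorescent mesenchyme of the mouse reproductive tract, labelled by Rosa-Tomato after recombination and sorted after dissociation with TrypLE. In embryos with Gli1-CreER; Rosa-Tomato, recombination needs tamoxifen and activity of Gli1, which hedgehog signalling switches on. In embryos with Amhr2-Cre; Rosa-Tomato it takes place wherever the promoter of Amhr2, the receptor of anti-Müllerian hormone, is active. Dams of both crosses received 1 mg of tamoxifen on E12.5 and again on E13.5 (days of embryonic development), so all groups share that exposure. The 4 fetal groups were Gli1+ cells of the mesonephros, the embryonic organ that carries the Wolffian and Müllerian ducts: XX (female) and XY (male), at E14.5 and at E16.5. The 2 uterine groups were Amhr2+ and Gli1+ cells of the female neonatal uterus at E19.5. Each group had 3 libraries. The labels do not say whether libraries came from separate animals, so p-values measure the spread between these libraries, which may be technical.

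Fetal libraries held 23382983 to 64602477 counts, and uterine libraries 28709191 to 37541045. Levels are given as CPM, the usual count scaled to library size, here with sizes adjusted by TMM, a correction for composition. A count of 3, taken as the floor of detection, equals at most 0.126 CPM in the fetal and 0.102 CPM in the uterine table, counting error only. All 12 fetal libraries matched their labelled sex. All 10 mesenchyme markers checked were above the floor in every group, and Gli1 averaged 184 CPM in E14.5 XX, 50.7 in E16.5 XX, 228 in E14.5 XY and 208 in E16.5 XY cells. In the uterus Gli1 averaged 17.9 CPM in Gli1+ and 10.5 in Amhr2+ cells, and Amhr2 averaged 11.1 CPM in Amhr2+ and 4.10 in Gli1+ cells. Germ cell markers summed to 9.75 CPM or less in every library, and Dppa3 was at 0 in all of them.

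The genes are tied together by a small regulatory RNA. LIN28A and LIN28B bind precursors of the let-7 microRNAs and block their maturation, and mature let-7 represses messages that carry a matching site in the 3′ untranslated region (3′ UTR), among them Hmga2, Lin28b, the Igf2bp genes and Arid3a. HMGA1 and HMGA2 are architectural proteins that bend AT-rich DNA, the IGF2BP proteins bind messenger RNA and prolong its life, and ARID3A is a DNA-binding protein. In fetal stem and progenitor cells the LIN28 genes are high and let-7 is low, and this relation inverts as tissues mature.

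The let-7 sequences below are shown because their seed (bases 2 to 8, in capitals) defines the target site. Sequences are from RefSeq on GRCm38.p6, the assembly called mm10. Of 11 mature sequences matched, 10 shared the seed of let-7a, and let-7j differed from them in the last base of the seed.
let-7a: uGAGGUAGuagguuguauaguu
let-7c: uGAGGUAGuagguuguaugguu
let-7g: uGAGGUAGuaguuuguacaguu
miR-98: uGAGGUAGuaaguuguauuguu
let-7j: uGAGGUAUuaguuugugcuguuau

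The complement of the common seed is CTACCTC. It was searched on the sense strand of the longest annotated 3′ UTR of each gene (GENCODE vM21). All 8 genes held at least 1 match, where 10.6% of 13873 genes with a 3′ UTR did. Hmga2, Lin28b and Igf2bp1 held 4 each, a number reached by 0.0793% of genes; Lin28a and Arid3a held 2, and Hmga1, Igf2bp2 and Igf2bp3 held 1. The 8-base match, with an A after the 7 bases, was present in 7 of 8 genes, all but Hmga1, and in 3.76% of all genes. These genes are known let-7 targets, so the matches are a description of the set and no independent finding. The 4 Hmga2 matches and 1 from each other gene are shown, with the match in capitals, because they are the feature that the members share.
Hmga2 site 1, chr10:120364224-120364246, minus strand: gccgacattcaatttCTACCTCa
Hmga2 site 2, chr10:120362987-120363009, minus strand: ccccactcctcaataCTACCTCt
Hmga2 site 3, chr10:120362549-120362571, minus strand: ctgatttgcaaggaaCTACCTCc
Hmga2 site 4, chr10:120361691-120361713, minus strand: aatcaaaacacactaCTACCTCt
Lin28b site 1, chr10:45381022-45381044, minus strand: acccgggcgggaagtCTACCTCa
Lin28a site 1, chr4:134005189-134005211, minus strand: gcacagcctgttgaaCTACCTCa
Igf2bp1 site 1, chr11:95961778-95961800, minus strand: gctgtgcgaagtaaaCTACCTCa
Igf2bp2 site 1, chr16:22059473-22059495, minus strand: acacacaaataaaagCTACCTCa
Igf2bp3 site 1, chr6:49086787-49086809, minus strand: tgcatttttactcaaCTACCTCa
Hmga1 site 1, chr17:27563277-27563299, plus strand: tcctctgttcacaaaCTACCTCt
Arid3a site 1, chr10:79953895-79953917, plus strand: aaggcaagtttctttCTACCTCa

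The first match of Hmga2 lay 58 bases after the stop codon and the last 2591 bases after it, in a 3′ UTR of 3014 bases. Igf2bp1 had the longest 3′ UTR of the set, 6337 bases, and 3 of its 4 matches were followed by A. Among genes of like 3′ UTR length, 17.2% of those near Hmga2 and 33.6% of those near Igf2bp1 held at least 1 match, and 0.157% and 0.418% held at least as many. A count of matches says nothing of the amount of let-7, which these polyA libraries do not measure.

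Hmga2 was the most abundant member of the set in E14.5 cells and fell most among the well-detected members. In XX cells it measured 619, 590 and 580 CPM at E14.5 and 116, 111 and 92.2 CPM at E16.5. In XY cells it measured 393, 393 and 329 CPM at E14.5 and 68.2, 43.7 and 43.5 CPM at E16.5. No group overlapped another, and the order was E14.5 XX, E14.5 XY, E16.5 XX, E16.5 XY. The fall in XX cells was 5.59-fold, a log2 change of -2.48 (SE 0.164, adjusted p = 3.17e-07 by edgeR's quasi-likelihood test over 17858 genes). In XY cells the fitted change was -2.84 on the log2 scale, or 7.18-fold. RNA of sorted bulk cells does not tell fewer cells with the RNA from less RNA per cell.

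Hmga1, the paralog of Hmga2, stood far lower and moved less. It measured 19.4, 19.4 and 19.8 CPM in E14.5 XX cells and 11.5, 13.0 and 12 CPM in E16.5 XX cells. The XY values were 13.0, 14.2 and 13.0 CPM at E14.5 and 6.61, 5.39 and 5.64 CPM at E16.5. The ages did not overlap in either sex, while E16.5 XX reached the lower end of E14.5 XY. The log2 fold change with age was -0.68 in XX (SE 0.0937, adjusted p = 3.99e-05) and -1.19 in XY. An antisense gene, RP23-189L19.6, overlaps Hmga1 and had 1496 counts over the fetal table against 5550 for Hmga1; how strand was used in counting is not given in the sources used here.

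Lin28b, which holds let-7 precursors back, was low but above the floor in every fetal library. It measured 6.61, 7.05 and 5.90 CPM in E14.5 XX and 3.55, 3.18 and 3.54 CPM in E16.5 XX cells, a log2 change of -0.93 (SE 0.144, adjusted p = 0.000124). In XY cells it went from 6.06, 5.37 and 4.62 CPM to 1.57, 1.28 and 1.28 CPM, a fitted log2 change of -1.95. The sexes overlapped at E14.5 and were separate at E16.5. Lin28a, its paralog, is set apart because it was near the limit of detection. It had 14, 9 and 14 counts in E14.5 XX libraries, 9, 16 and 17 in E14.5 XY, 1, 6 and 0 in E16.5 XX and 3, 0 and 2 in E16.5 XY. It passed the filter on low counts only through the E14.5 groups, so that it had to differ between ages among the genes kept, and its ages are given as counts only.

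The 3 Igf2bp genes did not move alike. Igf2bp1 measured 150, 144 and 145 CPM in E14.5 XX and 67.4, 66.1 and 69.7 CPM in E16.5 XX cells, a log2 change of -1.11 (SE 0.0750, adjusted p = 2.27e-08). In XY cells it went from 122 CPM in all 3 libraries to 52.3, 63.5 and 66.6 CPM. Igf2bp3 measured 59.7, 57.9 and 57.7 CPM in E14.5 XX and 40.9, 38.9 and 34.1 CPM in E16.5 XX cells, a log2 change of -0.62 (SE 0.0753, adjusted p = 1.14e-05). Its XY values were 60.2, 62.9 and 63.3 CPM, then 43.1, 45.1 and 39.1 CPM. Both genes kept the ages apart in both sexes. Igf2bp3 is overlapped by the antisense gene Malsu1, with 4882 counts over the fetal table against 22943. Strand could not separate their fetal reads either.

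Igf2bp2, the paralog best known from glucose metabolism and muscle, stood near one level throughout the fetal groups. It measured 300, 296 and 293 CPM in E14.5 XX and 261, 274 and 268 CPM in E16.5 XX cells. The groups did not overlap, but the log2 fold change of -0.15 did not pass (SE 0.0614, adjusted p = 0.0716). The XY values, 286, 304 and 328 CPM and then 264, 288 and 280 CPM, overlapped. The Igf2bp2 change in XX passed under 4 of 18 alternative settings, with adjusted p between 0.0152 and 0.229 over all of them.

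Arid3a measured 17.5, 24.9 and 24.7 CPM in E14.5 XX and 14.4, 12.9 and 10.8 CPM in E16.5 XX cells, a log2 change of -0.82 (SE 0.167, adjusted p = 0.00158). In XY cells it went from 17.0, 16.9 and 18 CPM to 15.6, 13.4 and 9.82 CPM, and the ages did not overlap. E14.5 XX replicate 1, at 17.5 CPM, stood with the E14.5 XY libraries and not with the other two of its group.

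All 8 members passed the filter on low counts in the fetal table and 7 in the uterine table. With age in XX cells, 6 of the 7 members other than Lin28a were lower and none higher. Of all genes tested, 18.6% were lower and 21% higher. The median log2 fold change of these 7 was -0.82, against 0.00 for all genes. The same 6 members passed under all 18 alternatives. In XY cells the ages of Hmga1, Hmga2, Lin28b, Igf2bp1, Igf2bp3 and Arid3a did not overlap, all lower at E16.5, while those of Igf2bp2 did. Lin28a is left out here as well. Of all genes 34.9% had separate ages in either direction. This is read no further because the comparison chose the members. The fitted difference between the sexes in the change with age, XX minus XY, was not tested. On the log2 scale it was 1.02 for Lin28b (SE 0.210), 0.51 for Hmga1 (SE 0.134) and 0.36 for Hmga2 (SE 0.220). It lay between -0.39 and -0.001 for Igf2bp1, Igf2bp2, Igf2bp3 and Arid3a. Other quantities also moved with age in XX cells. Endothelial markers summed to between 119 and 132 CPM at E14.5 and between 71.5 and 84.2 CPM at E16.5, and mesenchyme markers to between 41172 and 43224 CPM and then between 57910 and 67350 CPM. Erythroid markers summed to 984 CPM in 1 E14.5 XX library, replicate 3, against 8.64 and 27.9 in the other two. Their part in the result was not tested; without that library the same 6 members passed.

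**Figure D1:**
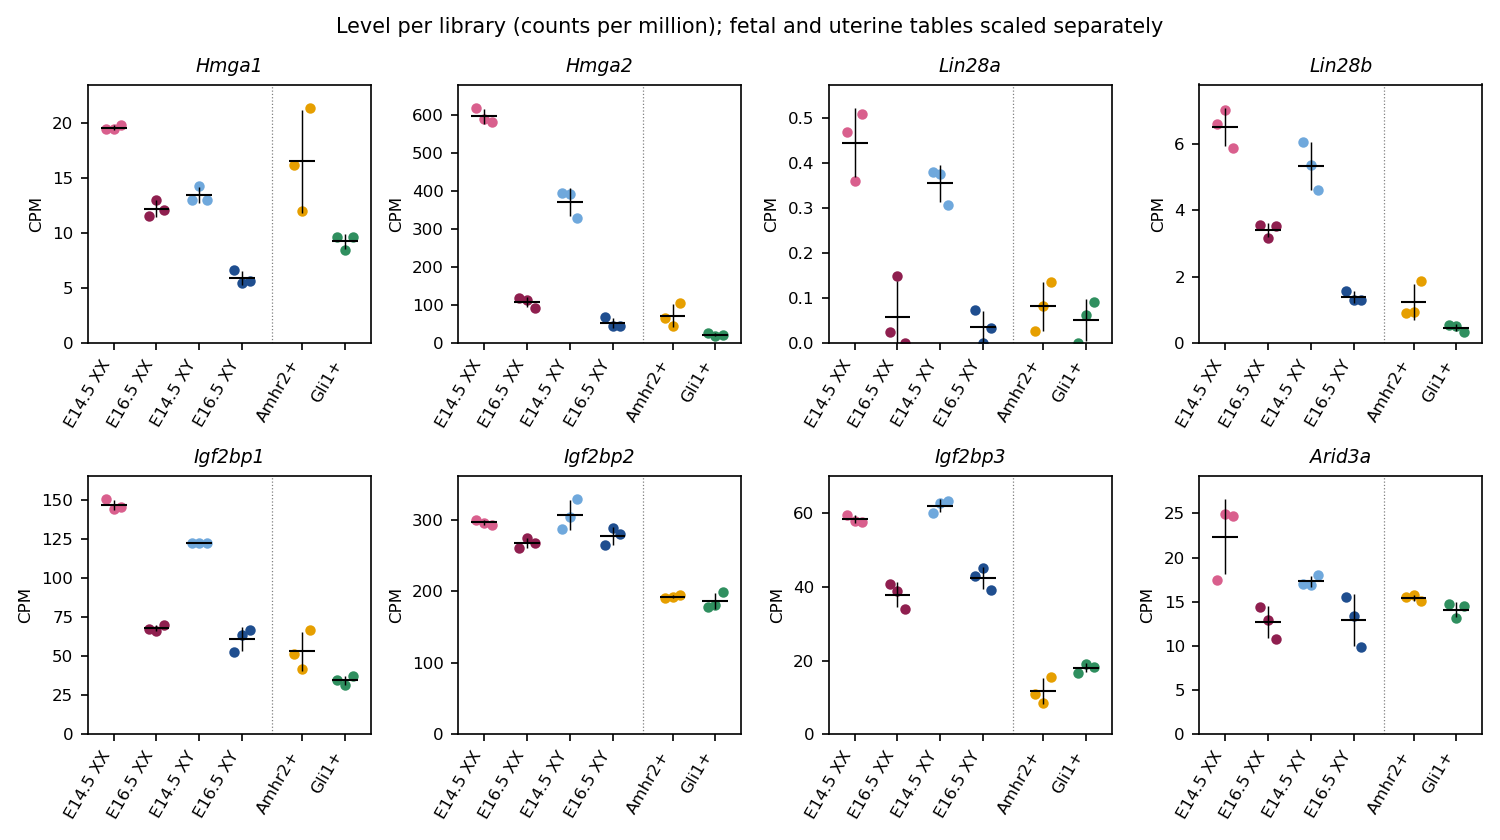
Level of each member in CPM (vertical axis, linear, from 0) in each library (points), with the group mean (bar) and SD (line, stopped at 0), by group on the horizontal axis. Hmga2 fell from between 580 and 619 CPM to between 92.2 and 116 CPM in XX cells, while Igf2bp2 stayed between 261 and 328 CPM in all fetal libraries.

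Sex differences came next, and they share libraries with the comparisons of age. At E14.5, 2 of the 7 members other than Hmga2 were higher in XX than in XY cells, and none lower, where 2.59% of all genes were higher and 3.69% lower. Hmga1 was higher by 0.54 on the log2 scale (SE 0.0936, adjusted p = 0.00235), and this call held under all 18 alternatives. Igf2bp1 was higher by 0.26 (SE 0.0739, adjusted p = 0.0490), or 147 ± 3.19 against 122 ± 0.0792 CPM (mean ± SD over 3 libraries). The groups of both genes were separate in CPM, but the Igf2bp1 call held in 8 of 18 alternatives and was lost without any 1 of the 6 E14.5 libraries. Hmga2, described without a test, averaged 596 ± 19.9 CPM in XX and 372 ± 37.0 CPM in XY cells, a fitted log2 difference of 0.68, with separate groups.

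Lin28b differed by 0.30 between the sexes at E14.5 (adjusted p = 0.276) and Arid3a by 0.37 (adjusted p = 0.248), with overlapping groups. Igf2bp2, Igf2bp3 and Lin28a had log2 fold changes of -0.05, -0.09 and 0.35, with adjusted p of 0.742, 0.578 and 0.769. Marker sums moved with sex at this age. Epithelial markers summed to between 31.1 and 35.5 CPM in XX and between 45.4 and 53.8 CPM in XY cells, and immune markers to between 61.2 and 68.8 and between 43.3 and 59.3 CPM. Gonad somatic markers summed to 47.3 CPM or less in XX and to between 48.1 and 56.5 CPM in XY cells, and germ cell markers to between 2.83 and 3.91 and between 4.67 and 6.06 CPM. Their part in the sex differences at E14.5 was not tested.

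At E16.5 Hmga1 and Lin28b were higher in XX than in XY cells. Hmga1 averaged 12.2 ± 0.755 CPM in XX and 5.88 ± 0.643 CPM in XY cells (SD, n = 3), a log2 change of 1.05 with SE 0.0971 and edgeR adjusted p = 7.46e-07. For Lin28b the means were 3.42 ± 0.212 and 1.38 ± 0.170 CPM, a log2 change of 1.32 (SE 0.156, adjusted p = 1.12e-05). Neither gene overlapped between the groups, and both calls held under all 18 alternatives, the fit with the replicate number as a block included. Hmga2, again without a test, averaged 107 ± 12.8 against 51.8 ± 14.2 CPM, a fitted log2 difference of 1.04, and its groups were separate. Thus 2 of the 7 members other than Hmga2 passed. Among all genes 13.2% were higher and 14.1% lower in XX. The other 5 did not pass: Igf2bp1 had 0.16 (adjusted p = 0.140), Igf2bp3 -0.16 (0.133), Igf2bp2 -0.05 (0.606), Arid3a -0.02 (0.945) and Lin28a 0.65 (0.670).

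The E16.5 sexes also differed in other respects. Endothelial markers summed to between 71.5 and 84.2 CPM in XX and between 86.5 and 96.1 CPM in XY cells, erythroid markers to between 30.7 and 56.8 and between 15.7 and 20.6 CPM, gonad somatic markers to between 46.0 and 52.2 and between 64.3 and 72.0 CPM, and epithelial markers to between 23.8 and 32.8 and between 33.2 and 40.8 CPM. Their part in the sex differences was not tested.

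**Figure D2:**
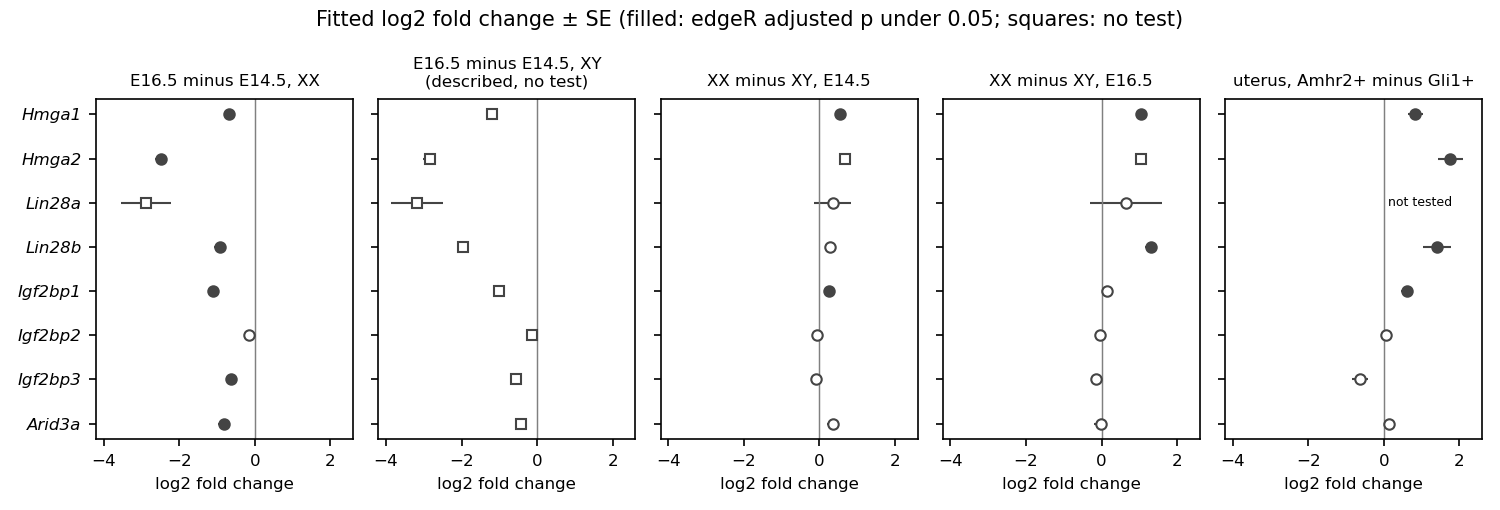
Fitted log2 fold change (horizontal axis) with its SE for each member (rows) in 5 comparisons; filled points passed edgeR's adjusted p of 0.05, open circles did not, and squares (age in XY, Lin28a with age, Hmga2 between the sexes) are described without a test. Igf2bp2 lay within 0.15 of 0 in every panel, while Hmga2 lay between -2.84 and 1.76.

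In the neonatal uterus 4 members were higher in Amhr2+ than in Gli1+ cells, and none lower, where 10.1% of all 16195 genes tested were higher and 13.7% lower. Hmga2 measured 63.7, 44.4 and 105 CPM in Amhr2+ and 24.5, 18 and 20.1 CPM in Gli1+ cells, which was 3.39-fold, a log2 change of 1.76 (SE 0.332, adjusted p = 0.0147). Hmga1 measured 16.1, 11.9 and 21.3 against 9.59, 8.39 and 9.62 CPM, a log2 change of 0.84 (SE 0.196, adjusted p = 0.0177). Lin28b measured 0.907, 0.917 and 1.86 against 0.536, 0.495 and 0.332 CPM, a log2 change of 1.41 (SE 0.380, adjusted p = 0.0294). None of these genes overlapped between the populations, and replicate 3 was the highest Amhr2+ library for each.

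Igf2bp1 was higher as well, with 51.1, 41.8 and 66.6 CPM in Amhr2+ and 34.8, 31.3 and 37.2 CPM in Gli1+ cells (log2 fold change 0.62, SE 0.160, adjusted p = 0.0279). Igf2bp3 had the opposite sign, 11.0, 8.47 and 15.6 against 16.7, 19 and 18.3 CPM. Its log2 fold change of -0.63 did not pass (SE 0.200, adjusted p = 0.0547), although the groups were separate; DESeq2 gave an adjusted p of 0.0127. Malsu1, antisense to Igf2bp3, held 2318 counts in the uterine table against 2983 for Igf2bp3, and without knowing how strand was used in counting their reads cannot be told apart. The same holds for Hmga1 and its antisense gene RP23-189L19.6, with 2606 and 1150 counts in the uterine table. Igf2bp2 differed by 0.05 (adjusted p = 0.619) and Arid3a by 0.13 (adjusted p = 0.327). Lin28a had 1, 3 and 4 counts in Amhr2+ and 0, 2 and 3 in Gli1+ libraries and was not tested.

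The uterine calls depended on single libraries. Without Gli1+ replicate 2 none of the 4 passed edgeR's adjusted threshold, though 5 of the 7 members tested had an unadjusted p under 0.05; with all libraries DESeq2 called 5. Without Amhr2+ replicate 1 only Lin28b passed, and without Gli1+ replicate 1 only Hmga2. The Hmga2 fold change stayed positive, between 1.37 and 2.02 on the log2 scale, and its adjusted p between 6.52e-05 and 0.0583, over the 11 alternatives. Epithelial markers summed to between 72.8 and 74.9 CPM in Amhr2+ and between 31.9 and 44.8 CPM in Gli1+ libraries, gonad somatic markers to between 72.7 and 121 and between 63.1 and 66.1 CPM, and mesenchyme markers, chiefly collagens, to between 27291 and 29183 and between 56422 and 63671 CPM. Endothelial markers summed to between 35.3 and 40.2 CPM in Amhr2+ and between 46.4 and 55.3 CPM in Gli1+ libraries, erythroid markers to between 2.29 and 3.21 and between 8.41 and 9.60 CPM, and germ cell markers to between 3.19 and 4.42 and between 7.33 and 9.75 CPM. Their part in the uterine differences was not tested.

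Levels can be set against each other only per length, as CPM per kb of exon. In E14.5 XX cells the order was Hmga2 at 88.0 CPM per kb, Igf2bp2 at 40.0, Igf2bp1 at 15.1, Hmga1 at 9.20, Igf2bp3 at 7.16, Arid3a at 4.02, Lin28b at 0.719 and Lin28a at 0.111, and no neighbours in this order overlapped. E14.5 XY cells differed in that Igf2bp3, at 7.62, stood above Hmga1, at 6.31. By E16.5 Igf2bp2 led with 36.2 CPM per kb in XX and 37.4 in XY cells. Hmga2 was then second, at 15.7 CPM per kb in XX and 7.65 in XY cells, where it could not be separated from Igf2bp1 at 6.28. In the uterus Igf2bp2 led again, at 26.0 CPM per kb in Amhr2+ and 25.1 in Gli1+ cells. Hmga2 was second in Amhr2+ cells at 10.5, overlapping Hmga1 at 7.75, and in Gli1+ cells stood at 3.08, below Hmga1 at 4.33 and overlapping Igf2bp1 at 3.56.

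Ratios within a library are free of scaling. In XY cells the ratio of Hmga2 to Hmga1 uses the Hmga2 values that chose the set, so it is only described. Hmga2 was 9.57 ± 0.387 times Hmga1 per kb in E14.5 XX and 8.70 ± 0.769 times in E14.5 XY cells, then 2.75 ± 0.391 and 2.73 ± 0.440 times at E16.5 (SD, n = 3). In the uterus the ratio was 1.32 ± 0.200 in Amhr2+ and 0.711 ± 0.0801 in Gli1+ cells. Igf2bp2 was 2.64 ± 0.0363 and 3.27 ± 0.225 times Igf2bp1 in XX and XY cells at E14.5, and 5.17 ± 0.225 and 6.01 ± 0.559 times at E16.5. The ages did not overlap for Igf2bp2 to Igf2bp1 in either sex, nor for Hmga2 to Hmga1 in XX cells. Of the 3 Igf2bp messages together, Igf2bp1 made up 24.3% in XX cells at E14.5 and 14.6% at E16.5, and 20.5% and 12.8% in XY cells, while Igf2bp2 went from 64.2% to 75.6% and from 67.1% to 76.5%. In uterine Gli1+ cells Igf2bp1 held 11.5% and Igf2bp2 81.3%.

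**Figure D3:**
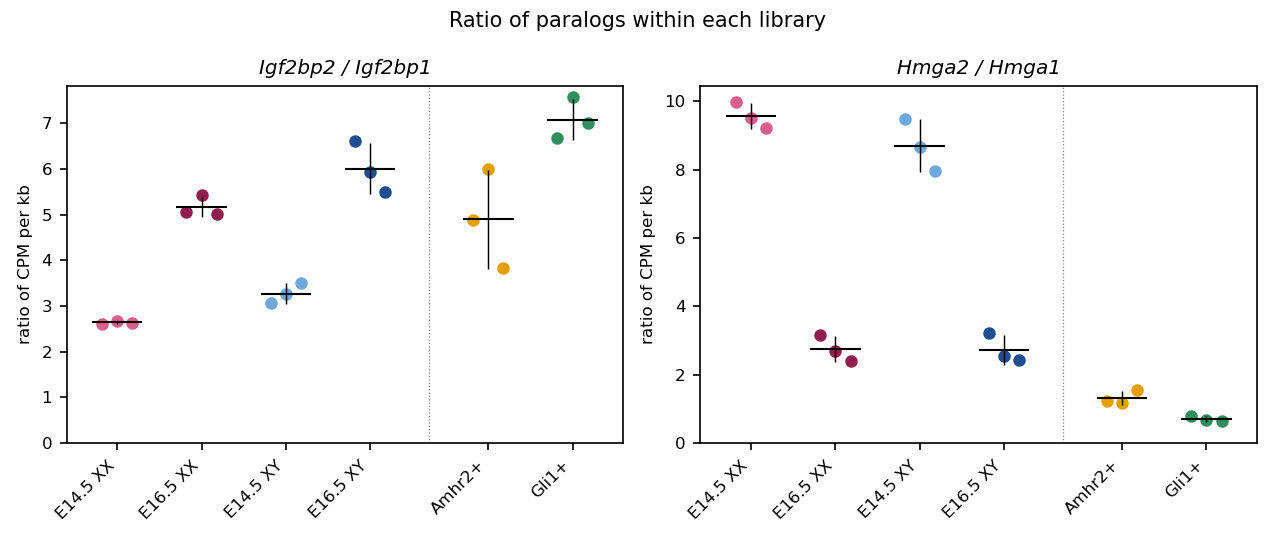
Ratio of CPM per kb (vertical axes, linear, from 0) of Igf2bp2 to Igf2bp1 and of Hmga2 to Hmga1 in each library (points), with group mean (bar) and SD (line). The Hmga2 to Hmga1 ratio lay between 9.21 and 9.98 in E14.5 XX libraries and between 2.40 and 3.17 in E16.5 XX libraries. The Hmga2 values of the XY libraries chose the set.

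The machinery around LIN28 and let-7 was read from a list of 19 genes. For this and the later lists, the shares of all genes called in each comparison are those given above. With age in XX cells 10 of them were lower and 1 higher, and the median log2 fold change was -0.19 against 0.00 for all genes; the lower count ranged from 6 to 12 over the alternatives. Trim71, a let-7 target that encodes an RNA-binding ubiquitin ligase of early embryos, showed the largest change. It measured 2.77, 1.87 and 1.99 CPM in E14.5 XX, 0.784, 0.566 and 0.682 in E16.5 XX, 0.547, 0.774 and 0.613 in E14.5 XY and 0.0726, 0.0267 and 0.226 in E16.5 XY cells. E14.5 XX stood above every other group, and E16.5 XY lay around the floor of detection. Its log2 fold change was -1.71 with age in XX (SE 0.317, adjusted p = 0.000596), 1.76 between sexes at E14.5 (SE 0.320, adjusted p = 0.00335) and 2.42 at E16.5 (SE 0.430, adjusted p = 0.000542), and all 3 calls held under every alternative. In the uterus it was higher in Amhr2+ cells by 2.17 (SE 0.600, adjusted p = 0.0334), a call lost without any 1 of 5 libraries, all but Amhr2+ replicate 2, at adjusted p between 0.0641 and 0.0864.

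Of the other 9 genes of that list that were lower with age in XX cells, Dicer1, which cuts let-7 from its precursor, changed most, with a log2 change of -0.72 (adjusted p = 4.12e-06). Zcchc11 (TUT4), which tails let-7 precursors held by LIN28, had one of -0.39. Between the sexes Trim71 was the only one of the 19 that passed at E14.5, and Tnrc6c, at 0.28, joined it at E16.5. Genes under a log2 change of 1 are named in this account after their values were seen.

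Of 18 let-7 precursor and host genes looked for, 15 had a row and 3 passed the filter. With age in XX cells 1 of the 3 was higher and 1 lower, and in the uterus likewise 1 was higher and 1 lower in Amhr2+ cells. Mir99ahg, the long RNA whose gene (chr16:77236317-77773427) holds the let-7c-1 precursor, had the opposite sign to the members that passed in both comparisons. It measured 7.05, 7.13 and 5.79 CPM in E14.5 XX and 14.2, 8.96 and 11.6 CPM in E16.5 XX cells, a log2 change of 0.80 (SE 0.184, adjusted p = 0.00325). In XY cells it went from 9.97, 8.61 and 8.41 CPM to 17.6, 11.3 and 16.6 CPM. The ages were separate in both sexes. In the uterus it was lower in Amhr2+ cells, 3.58, 3.42 and 1.69 against 6.02, 7.43 and 4.37 CPM (log2 fold change -1.02, SE 0.299, adjusted p = 0.0401); that call held in 5 of 11 alternatives and was lost without any 1 of Amhr2+ replicates 1, 2 and 3 or Gli1+ replicates 1 and 2. Huwe1, a ubiquitin ligase gene that hosts let-7 family precursors, had the same sign as those members. It measured 889, 860 and 876 CPM in E14.5 XX and 729, 788 and 685 CPM in E16.5 XX cells (log2 fold change -0.25, adjusted p = 0.0455, called in 10 of 18 alternatives), and 812 ± 76.8 CPM in Amhr2+ against 635 ± 62.4 CPM in Gli1+ cells (0.35, adjusted p = 0.0280, called in 7 of 11). A host RNA is not a measure of mature let-7.

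Other known let-7 targets were read from a list of 29 genes, of which 28 were tested. With age in XX cells 19 were lower and 2 higher (median -0.34 against 0.00 for all genes), and the lower count ranged from 14 to 22 over the alternatives. Prtg, a cell-surface protein of early embryos, fell most: 59.8, 59.6 and 56.8 CPM in E14.5 XX against 14.6, 15.2 and 11.4 CPM in E16.5 XX cells, a log2 change of -2.10 (SE 0.120, adjusted p = 3.94e-09). Its XY values were 44.9, 34.9 and 35.7 CPM, then 13.2, 11.9 and 10.6 CPM. The cyclin Ccnd2, Irs2 of insulin signalling and the receptor Tgfbr1 had log2 fold changes of -0.90, -0.88 and -0.74. The calls of Ccnd2 and Tgfbr1 held in all 18 alternatives. That of Irs2 (edgeR's adjusted p = 0.0478) held in 8 of 18 and was lost without any 1 of the 3 E14.5 XX libraries. The 2 that were higher were the collagens Col1a2 (0.72) and Col3a1 (0.37).

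Between the sexes few genes of the same list passed. At E14.5, 3 of 28 were higher in XX and none lower by edgeR (1 to 5 and 0 to 2 over the alternatives), Prtg among them at 0.61. Among all genes 2.59% were higher and 3.69% lower. At E16.5, 1 was higher and 5 lower, with Ccnd1 at -0.52, where 13.2% of all genes were higher and 14.1% lower. In the uterus 4 were higher and 4 lower in Amhr2+ cells, where 10.1% of all genes were higher and 13.7% lower. Prtg was higher there by 1.42 (SE 0.209, adjusted p = 0.00214, called under all 11 alternatives). Mycn, a growth-promoting transcription factor, was higher by 1.41, with 4.80, 3.80 and 7.59 against 2.98, 1.42 and 1.66 CPM (adjusted p = 0.0214); without Amhr2+ replicate 1 or Gli1+ replicate 2 or 3 that p was 0.0533, 0.0648 and 0.0602. Col1a2 was lower (log2 fold change -1.75, SE 0.0712, adjusted p = 4.96e-06).

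**Figure D4:**
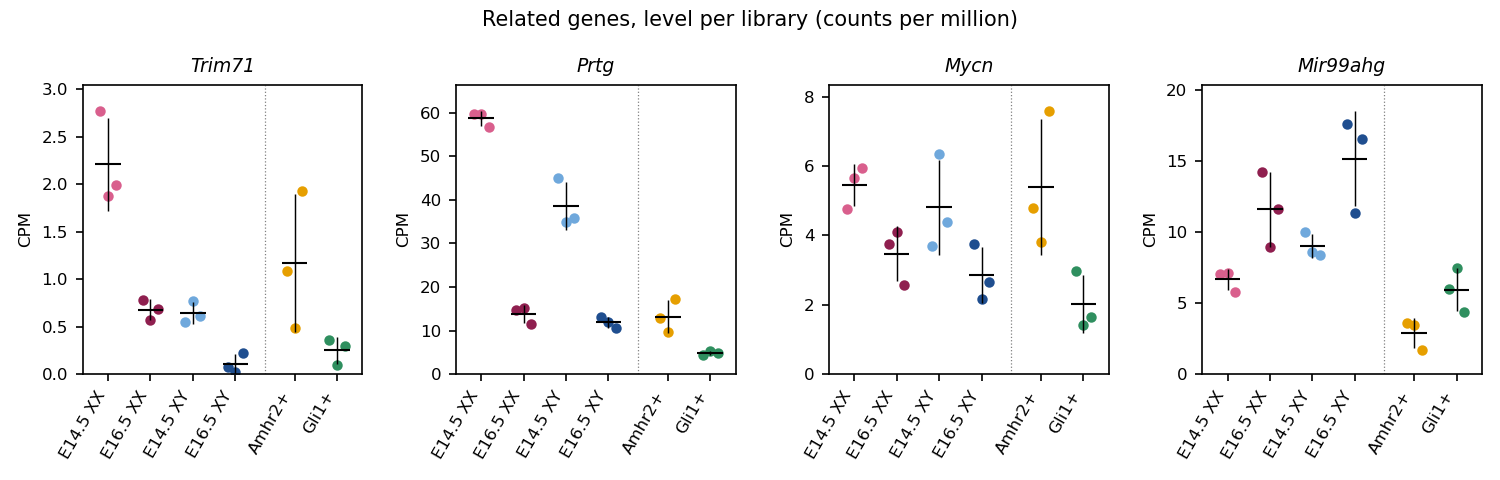
Level of 4 related genes in CPM (vertical axis, linear, from 0) in each library (points), with group mean (bar) and SD (line, stopped at 0), by group. Trim71 and Prtg were highest in E14.5 XX libraries, up to 2.77 and 59.8 CPM, while Mir99ahg was lower at E14.5 than at E16.5 in both sexes.

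Annotated genes outside the set can be sorted by their number of CTACCTC matches. With age in XX cells 19.2% of 12406 genes without a match were lower, 26.4% of 1281 with 1, 34.8% of 155 with 2 and 34.8% of 23 with 3 or more. The median log2 fold changes were 0.03, -0.03, -0.15 and -0.08. The median 3′ UTR length rose across these classes from 1080 to 2221, 3475 and 4453 bases, and its part in the shares was not tested. At E16.5 the shares of genes higher in XX were 15.1%, 16.3%, 7.74% and 8.70% in the same order, with no rise. Those lower in XX were 16.6%, 16.2%, 13.5% and 8.70%. At E14.5 the shares were 3.11%, 3.04%, 3.23% and 4.35% higher, and 4.46%, 4.37%, 3.23% and 0% lower. Uterine shares were 10.4%, 12.1%, 17.1% and 4.55% higher in Amhr2+ cells, and 15.3%, 16.7%, 9.21% and 9.09% lower. The uterine class with 3 or more matches held 22 genes.

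Cell division genes were read beside the members. With age in XX cells 16 of 20 cell cycle genes were lower and none higher (median -0.47), with Mcm3 at -0.71 and Top2a at -0.68. In XY cells their median change with age was 0.03. At E16.5, 16 of 20 cell cycle genes were lower in XX than in XY cells (median -0.33; 10 to 17 over the alternatives), the opposite sign to Hmga1, Hmga2 and Lin28b. In the uterus 5 were higher in Amhr2+ cells and none lower, a count that ranged from 2 to 12.

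The relatives of the members were read the same way. Of 7 other high-mobility-group genes, Hmgb3 and Hmgb2 were lower with age in XX cells (-0.51 and -0.31) and Hmgn3 higher (0.42). At E16.5, 6 of the 7 were lower in XX than in XY cells, with Hmgn5 at -0.89, where Hmga1 and Hmga2 were higher. Of 8 other ARID genes tested, Arid1b, Arid2 and Arid1a were lower with age in XX cells, with log2 fold changes of -0.40, -0.27 and -0.22.

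RNAs that IGF2BP proteins are known to bind moved in both directions. Of 7, 3 were higher with age in XX cells and 1 lower, where 21% of all genes were higher and 18.6% lower. Cd44, a cell adhesion receptor, measured 7.58, 6.69 and 8.25 CPM in E14.5 XX and 16.7, 16.1 and 17.1 CPM in E16.5 XX cells (log2 fold change 1.15, SE 0.134, adjusted p = 8.18e-06). In the uterus it was lower in Amhr2+ cells, 6.46, 6.28 and 5.69 against 21.3, 24.1 and 23.4 CPM (log2 fold change -1.90, SE 0.103, adjusted p = 1.42e-05). Ptgs2, a prostaglandin synthase, was lower in XX than in XY cells at both ages, with log2 fold changes of -1.53 at E14.5 (adjusted p = 0.000438) and -1.26 at E16.5 (adjusted p = 0.000150). Igf2, the growth factor after which the family is named, measured 320, 327 and 336 CPM in E14.5 XX and 279, 316 and 234 CPM in E16.5 XX cells, a log2 change of -0.25 (adjusted p = 0.0486). That call held in 8 of 18 alternatives and was lost, among others, with no filter on low counts and without any 1 of the 3 E14.5 XX libraries. H19, transcribed beside it, went up by 0.53 (adjusted p = 2.54e-05).

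Some genes followed a member closely over the 12 fetal libraries. Among 10082 autosomal genes of at least 10 CPM in a group, those nearest to Hmga2 by Pearson's r of log2 CPM were Igfbp3 (0.994), Sept9 (0.986), Tbx3os1 (0.985), Sema3e (0.985) and Arap3 (0.981). Igfbp3, which carries insulin-like growth factors, averaged 915 CPM in E14.5 XX, 560 in E14.5 XY, 195 in E16.5 XX and 125 in E16.5 XY cells. This is the order of Hmga2, but Igfbp3 was picked for its r with Hmga2, so the shared order is no further result. The XY values of Hmga2 that chose the set also enter its r. Nearest to Hmga1 were Ptpru (0.992), Wt1os (0.989) and Wt1 (0.985), to Igf2bp1 St8sia2 (0.989) and Sf3a1 (0.984), and to Igf2bp3 Mical2 (0.972), Nnat (0.971) and Unc5b (0.970). Igf2bp2 was followed less closely, by Igf2os (0.955), Plekhg2 (0.930) and Plagl2 (0.930), and Arid3a by Dolk (0.964), Plekha6 (0.951) and Ccnj (0.939). The points are the same libraries in 4 groups, so these values describe group patterns shared with library depth and scaling, and Igf2os is antisense to Igf2.

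Among the members, log2 CPM of Hmga2 correlated over the 12 fetal libraries at r of 0.914 with Hmga1, 0.950 with Lin28b, 0.953 with Igf2bp1, 0.839 with Igf2bp3 and 0.617 with Igf2bp2. Over the 6 uterine libraries the values were 0.985, 0.949, 0.970, -0.50 and 0.403. Both are descriptions of libraries that fall into groups, and the fetal ones include the XY values of Hmga2 that chose the set.

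Open chromatin was available as 1 list of 71040 ATAC-seq peak positions for all fetal samples together, so it shows where peaks were called and not how they changed. A peak lay within 1 kb of the start of 7 of the 8 genes, all but Lin28a, which had no peak in its gene; of the genes tested 79.0% had one. On the start itself 6 had a peak, where 65.8% of genes did, and Lin28b was the other exception. Hmga2 (chr10:120361275-120476469, minus strand) held 10 peaks, 9 of them in introns between 43.6 and 111 kb from its start. Among 2472 genes of at least 90 kb the median was 6, and 25.6% held at least as many. Igf2bp3 held 5, Igf2bp1 4, Igf2bp2 3, Arid3a 3, Hmga1 2 and Lin28b 1.

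The promoters of Hmga2 and Igf2bp2 are shown because a peak covers each start and because these are the member that fell most and the one that did not pass. Each runs from 250 bases before to 50 after the start in RefSeq's GRCm38.p6 table, which held 6 of the 8 genes. Capitals mark GGGCGG or its complement CCGCCC, the GC box, searched on both strands.
Hmga2 promoter, chr10:120476420-120476719, minus strand: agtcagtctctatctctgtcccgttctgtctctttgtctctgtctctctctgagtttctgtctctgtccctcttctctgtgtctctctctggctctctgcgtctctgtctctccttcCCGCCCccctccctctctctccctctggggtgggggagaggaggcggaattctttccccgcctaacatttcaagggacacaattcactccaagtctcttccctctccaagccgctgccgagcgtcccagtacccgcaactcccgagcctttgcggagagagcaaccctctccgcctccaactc
Igf2bp2 promoter, chr16:22163250-22163549, minus strand: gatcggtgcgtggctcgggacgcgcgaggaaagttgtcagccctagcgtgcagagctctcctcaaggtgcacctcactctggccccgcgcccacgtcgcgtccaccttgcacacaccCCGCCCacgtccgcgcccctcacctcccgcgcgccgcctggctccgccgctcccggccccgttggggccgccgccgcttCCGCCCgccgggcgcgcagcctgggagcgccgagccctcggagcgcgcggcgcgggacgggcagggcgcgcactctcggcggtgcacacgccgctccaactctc

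The Hmga2 stretch held 12 CpG dinucleotides and 1 GC box, and that of Igf2bp2 47 and 2. Lin28b held 8 CpG, Lin28a 10, Igf2bp3 25 and Hmga1 40 and 38 at its 2 starts. The median over 32851 promoters was 7 CpG, and 35.7% held a GC box. These counts describe the letters of the window and nothing about binding.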

How the data were processed

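RNA-seq counts per gene and a list of ATAC-seq peak positions were used as the authors deposited them. Per the submitters' processing notes the tools included STAR 2.5, Subread 1.5.0-p1, featureCounts, Bowtie 1.2 and MACS2 2.1.1 with the build mm10; their roles, the annotation version and the strand setting are not given in the sources used here. Per the labels' protocols, RNA was extracted with PicoPure, and a non-stranded kit was used for the fetal and a stranded kit for the uterine libraries. The 2 tables were therefore fitted separately, and no level is tested across them.

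Counts were tested with edgeR 4.0.16 (R 4.3.3): filterByExpr by group, TMM, robust quasi-likelihood, Benjamini-Hochberg adjustment over all genes tested and a threshold of 0.05. The fetal model held 4 group means over 12 libraries and the uterine model 2 over 6. Standard errors were derived from the F statistic of each log2 fold change. The script was tested on simulated data. Correlations used log2 CPM with a prior count of 2. Exon lengths and 3′ UTRs were taken from GENCODE vM21. Alternatives were library size alone, DESeq2 size factors in edgeR, DESeq2 1.42.0, no filter on low counts, each library left out, the 6 libraries compared alone, and a replicate block.

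The members and gene lists were chosen with earlier results of these data known. Named besides the members were list genes that passed with an absolute log2 fold change of at least 1, and the genes nearest to a member of at least 10 CPM (5 for Hmga2, 3 otherwise); other names were chosen after their values were seen. Some genes that the rule would name are not reported here. Symbols Tut4 and Tut7 stood in the tables as Zcchc11 and Zcchc6. No column was left unmapped. Same-numbered libraries of the E16.5 sexes deviated together from their group means (r of 0.284, 0.115 and 0.396), which the data and not the labels show. XX replicate 2 had an r of 0.108 with XY replicate 1 as well, so its pair was not told apart. In the other comparisons at least 1 r of same-numbered libraries was under 0.1.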

Additional observations from a re-analysis of the deposited data

How the results depend on the processing

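Counts here leave out Lin28a with age and Hmga2 between the sexes, as above. The members lower with age in XX cells numbered 6 or 7 over the alternatives, and those higher in XX at E16.5 numbered 2 under each. In the main fit 18.6% of all genes were lower with age in XX and 13.2% higher in XX at E16.5. At E14.5 the count of 2 members ranged from 1 to 2 when single libraries were left out. In the uterus the count of 4 became 2 with no filter on low counts and ranged from 0 to 4 when single libraries were left out. Calls over all genes moved too: from 1121 to between 553 and 1678 at E14.5, and from 3866 to 1949 without Amhr2+ replicate 1 and 2521 without Gli1+ replicate 1. Signs changed only for members that did not pass, with single libraries left out: Igf2bp2 at E14.5 ranged from -0.10 to 0.00 on the log2 scale (0.00433 without XY replicate 3), Lin28a at E16.5 from -1.32 to 1.40 (negative without XX replicate 2) and Arid3a at E16.5 from -0.20 to 0.14 (positive without XX replicate 3, XY replicate 1 or XY replicate 2); the cause was not tested. With the replicate number as a block, 6 members passed with age in XX and 3 at E14.5 (Arid3a at edgeR's adjusted p of 0.0369). In the same fits 2 passed at E16.5 and 5 in the uterus (Igf2bp3 at 0.0323). The block thus changed no call at E16.5, and the labels do not say whether the numbers pair the libraries. Peaks on the start itself left 6 genes of 7, and the 8-base let-7 match 7 of 8. Gene lists and list genes were run through the same alternatives after their values were seen. Depth limits Lin28a, with at most 17 counts per library, and Trim71 in E16.5 XY cells.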
